A study of Mus musculus with 16 samples.

Results

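The keratin gene family was described here in RNA-seq libraries of the mouse molar germ. Its members were every gene of the count tables whose symbol is Krt followed by a number and at most 1 letter, which gave 51 of 23337 genes. The Krtap genes, which encode keratin-associated proteins and not keratins, were left out. The libraries were 16 poly(A) libraries of the first molar germ of wild-type (WT) CD1 mice, an outbred laboratory strain. Of these, 8 were labelled upper and 8 labelled lower, and each label had 1 library at each of 8 stages spaced by 0.5 days, from ED14.5 to ED18.0 (ED, embryonic day). The labels describe a library as the left and right germs of 1 male embryo, pooled, and they assign both teeth of a stage to 1 embryo, numbered here as individuals 1 to 8 in order of stage. The submitters' stated interest was crown formation and cusp patterning in the upper and lower molar, and the comparisons below address the labelled tooth, the labelled stage and the difference in stage trend between the labels.

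Keratins are the intermediate filament proteins of epithelial cells. A filament is built from pairs of an acidic type I keratin and a basic type II keratin, and the genes of each type lie in a cluster of their own. In the tooth germ the epithelium is the enamel organ, which folds over a mesenchymal papilla, and keratin genes are known mainly from such epithelial cells. Which pair a cell makes follows its kind of epithelium: Krt5 and Krt14 mark basal cells of stratified epithelium, Krt8 and Krt18 simple epithelium, Krt1 and Krt10 the layers above the basal cells of the epidermis, and Krt4 and Krt13 those of the mouth lining. Of the 51 members, 28 were type I genes and 22 type II genes by their place in the GENCODE annotation of the mouse genome build GRCm38 (mm10). Type I genes lay on chromosome 11, with Krt18 beside the type II cluster on chromosome 15. Krt85 matched no entry there.

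The stretch just before the transcription start is shown for 5 of the members described below: Krt5, the keratin gene with the most counts, Krt13 and Krt78, which were higher in the libraries labelled lower, Krt10, which rose across the stages in labelled upper, and Krt75, whose difference was the smallest called. Sequences are from RefSeq (GRCm38.p6), run 5′ to 3′ on the strand of the gene, which is the minus strand for all 5, and end at the last base before the start. Capitals mark ATAAAAG or, in Krt10, TATAAA, letters of the kind known as a TATA box. The first capital lies at position -29 in Krt5, Krt13 and Krt78, at -32 in Krt75 and at -26 in Krt10, counting the last base before the start as -1.
Krt5, chr15:101712906-101713005: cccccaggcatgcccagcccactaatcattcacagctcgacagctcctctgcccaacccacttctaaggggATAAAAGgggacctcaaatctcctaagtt
Krt13, chr11:100121567-100121666: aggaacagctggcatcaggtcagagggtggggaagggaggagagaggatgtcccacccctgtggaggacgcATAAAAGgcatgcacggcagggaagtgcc
Krt78, chr15:101954288-101954387: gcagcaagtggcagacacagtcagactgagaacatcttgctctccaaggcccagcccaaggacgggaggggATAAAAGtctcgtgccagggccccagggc
Krt75, chr15:101573905-101574004: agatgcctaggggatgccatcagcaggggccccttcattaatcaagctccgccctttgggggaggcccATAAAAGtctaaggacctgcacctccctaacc
Krt10, chr11:99389365-99389464: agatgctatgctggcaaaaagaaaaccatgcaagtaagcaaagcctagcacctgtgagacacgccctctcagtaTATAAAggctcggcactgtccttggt
Over either strand of such 100-base stretches, ATAAAAG was present in 2.21% and TATAAA in 5.56% of the 32851 promoters of the RefSeq table. Of the 42 keratin genes detected here, 28 had an entry; ATAAAAG was found for 9 of them and TATAAA for 11. The 2 words can overlap, and a match is a description of the letters, not a binding site. All 5 stretches shown hold 1 of the 2 words. Krt8, Krt14, Krt18, Krt23, Krt24, Krt36 and Krt79 had an entry with neither word, as did a second entry of Krt13. The stretches of Krt8, of Krt14 and of the second Krt13 entry lie inside the gene as placed by GENCODE. So does that of Krt7, counted above with ATAAAAG. For Krt7, Krt8 and Krt14 the bases before the GENCODE start were therefore not examined. Krt4, Krt15, Krt17 and Krt19 are named without a sequence.

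Libraries held 33146758 to 44565205 counts on genes. Levels are given as CPM, counts scaled to an equal library total, and "called" means a Benjamini-Hochberg adjusted p under 0.05 over all 16287 genes tested with edgeR's quasi-likelihood test. Because each label and stage had a single library, the spread in these tests is scatter about a stage curve. The labels could not be taken at face value. Pou3f3, a transcription factor gene that marks the upper jaw, was at 6.45 to 10.1 CPM in individuals 1, 3, 5 and 7 and at 109.5 to 131.5 CPM in individuals 2, 4, 6 and 8 of the libraries labelled upper, and at 4.45 to 5.46 and 60.1 to 86.2 CPM in the same individuals of the libraries labelled lower. Xist, which is expressed from an inactive X chromosome, was at 431.8 and 542.3 CPM in the labelled lower libraries of individuals 1 and 2 and at 1499 to 1928 CPM in all others, although all embryos were labelled male. In the labelled upper libraries of individuals 1 and 2 it was at 1664 and 1739 CPM, although the labels assign both teeth of a stage to 1 embryo. Results that rest on those 2 labelled lower libraries are given with and without them. All groups are therefore called by their label. The libraries labelled upper and labelled lower came from different flow cells, so label and flow cell cannot be told apart. Lane, as read from the names of the deposited tables, separated the first 4 from the last 4 stages of each label.

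In the dissected samples, epithelial markers and mesenchymal markers were both present. The summed level of 12 epithelial markers (among them Epcam, Cdh1 and Trp63) reached 1066 to 1499 CPM under the upper label and 1287 to 1594 CPM under the lower label. That of 10 mesenchymal markers (among them Vim, Prrx1 and Col1a1) was 6174 to 9685 and 6299 to 8884 CPM. In such samples fewer cells of a type and less RNA per cell cannot be told apart. Of 12 epithelial markers tested, 1 was called higher in labelled upper (Cldn4) and 4 higher in labelled lower (Cdh3, Rab25, Trp63 and Cdh1), and none was called in a stage trend (0 rising, 0 falling in either label). In the labelled tooth difference 18.1% of all genes were called in each direction. In the stage trends 3.72% of all genes rose and 2.41% fell in labelled upper, and 2.63% and 1.49% did in labelled lower. Of the 10 mesenchymal markers, 3 were called higher in labelled upper (Prrx1, Msx1 and Vim) and 3 higher in labelled lower (Zeb1, Pdgfra and Col1a1). With stage, Col3a1 (0.20 ± 0.04 on the log2 scale per day; adjusted p = 0.0212) and Zeb1 (0.19 ± 0.04; adjusted p = 0.0321) rose and Prrx1 (-0.24 ± 0.06; adjusted p = 0.0416) fell in labelled upper, and 0 were called in labelled lower. Their part in the keratin differences was not tested.

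Keratin genes took 0.354% to 0.596% of all gene counts in the libraries labelled upper (mean 0.493% ± 0.085, SD, n = 8) and 0.375% to 0.628% in those labelled lower (0.461% ± 0.082, n = 8), ranges that overlapped. Of the 51 members, 42 were detected, that is, had at least 10 counts in at least 1 library. Krt2, Krt26, Krt32, Krt34 and Krt76 were detected but did not reach the level set for testing, 0.269 CPM in at least 2 libraries, which left 37 members tested. The 9 members not detected were Krt20, Krt25, Krt33b, Krt39, Krt40, Krt77, Krt81, Krt85 and Krt86, with at most 8 counts in any library, and Krt81 had 0 counts in all 16. A count of 23 members averaged at least 50 counts per library, and these are described by name; the other 19 detected members averaged at most 1.05 CPM and 1.37 CPM in the upper and lower label. Krt5, Krt14, Krt15 and Krt17 together made up 82.1% to 91.7% of keratin counts in labelled upper and 69.3% to 88.9% in labelled lower. Set per kilobase of transcript, so that genes of different length can be compared, the highest mean levels in labelled upper were 921.9 CPM per kb for Krt17, 883.2 for Krt5, 420.8 for Krt14 and 164.5 for Krt15. In labelled lower the order was Krt5 at 930.9 CPM per kb, Krt17 at 691.9, Krt14 at 308.0 and Krt13 at 142.9.

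**Figure D1:**
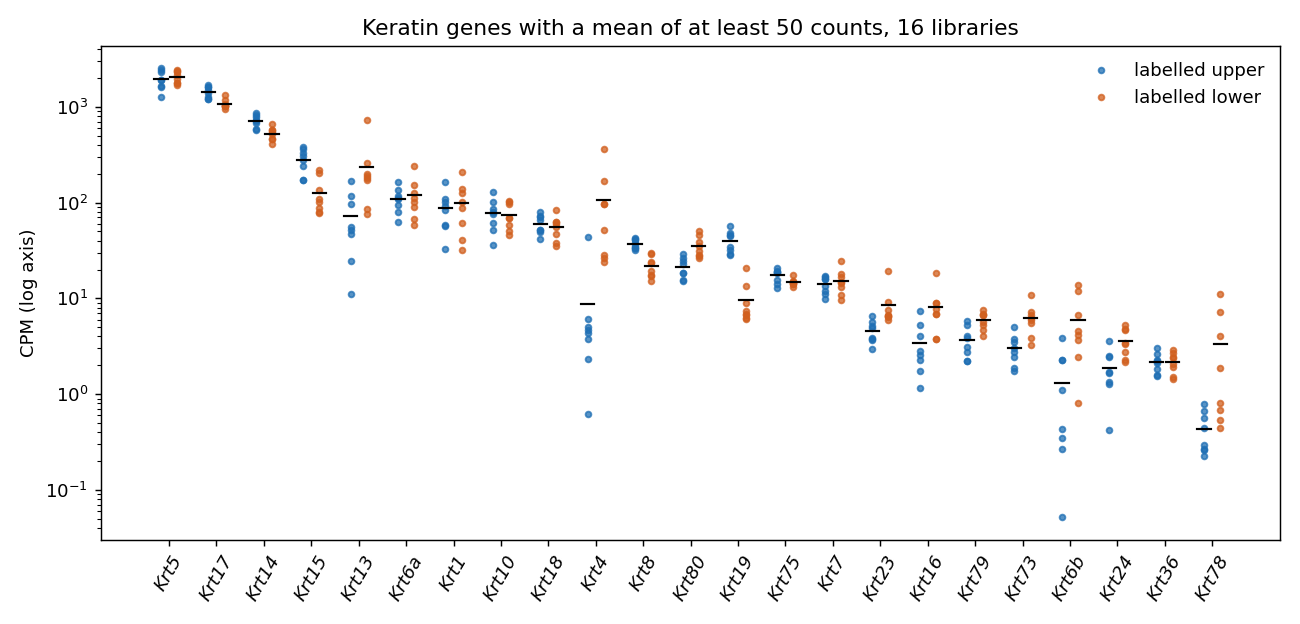
Level of the 23 keratin genes with a mean of at least 50 counts, as CPM on a log axis, with a point per library (8 labelled upper, 8 labelled lower) and a bar at the mean of each label. Krt5, Krt17 and Krt14 lie highest in both labels, the points of the 2 labels are separate for Krt8 and Krt19, and Krt4 spans from 0.617 CPM to 364.2 CPM over the 16 libraries.

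The labelled tooth difference gave the most calls in the family. Of 37 members tested, 6 were called higher in the libraries labelled upper, where 18.1% of all genes tested were called in that direction, and 15 were called higher in those labelled lower, where the share over all genes was also 18.1%. The members higher in labelled upper were the type I genes Krt19, Krt15, Krt14 and Krt17 and the type II genes Krt8 and Krt75. Those higher in labelled lower were Krt4, Krt78, Krt6b, Krt82, Krt13, Krt84, Krt16, Krt28, Krt73, Krt24, Krt71, Krt23, Krt79, Krt80 and Krt222. Of these, Krt71, Krt82 and Krt84 passed the filter for testing only because of libraries labelled lower. With library sizes taken from the 12 epithelial markers, a scaling chosen after seeing the data, the calls were 6 and 13, beside 4494 and 1151 over all genes where TMM scaling gave 2946 and 2956. The median log2 difference over the 37 was -0.30, beside 0.01 over all genes tested. All 8 libraries labelled upper lay above all 8 labelled lower for Krt8 and Krt19, 2 of 37 members, beside 2.89% of all genes, and no member (0 of 37) had all libraries labelled lower above all labelled upper, beside 3.52% of all genes. The sign was the same in 8 of 8 individuals for Krt8, Krt14, Krt15, Krt17 and Krt19, and, towards labelled lower, for Krt4, Krt13, Krt16, Krt23, Krt24, Krt78, Krt79, Krt80 and Krt82. In the first 4 stages alone 4 and 7 members were called, in the last 4 alone 5 and 7, and Krt15, Krt17, Krt19 and Krt8, and Krt4, Krt78 and Krt80, were called in both. Over all genes the calls were 2130 and 2251 in the first 4 stages and 1364 and 1780 in the last 4. Without the labelled lower libraries of individuals 1 and 2, 6 and 11 members were called, beside 2352 and 2676 over all genes; Krt24, Krt71, Krt84 and Krt222 were not, at adjusted p of 0.0674, 0.069, 0.0508 and 0.057. With the individual as a block, 5 and 13 were called, beside 3051 and 3071 over all genes, and the calls of Krt75, Krt71 and Krt84 were lost, at adjusted p of 0.0607, 0.0665 and 0.0609.

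**Figure D2:**
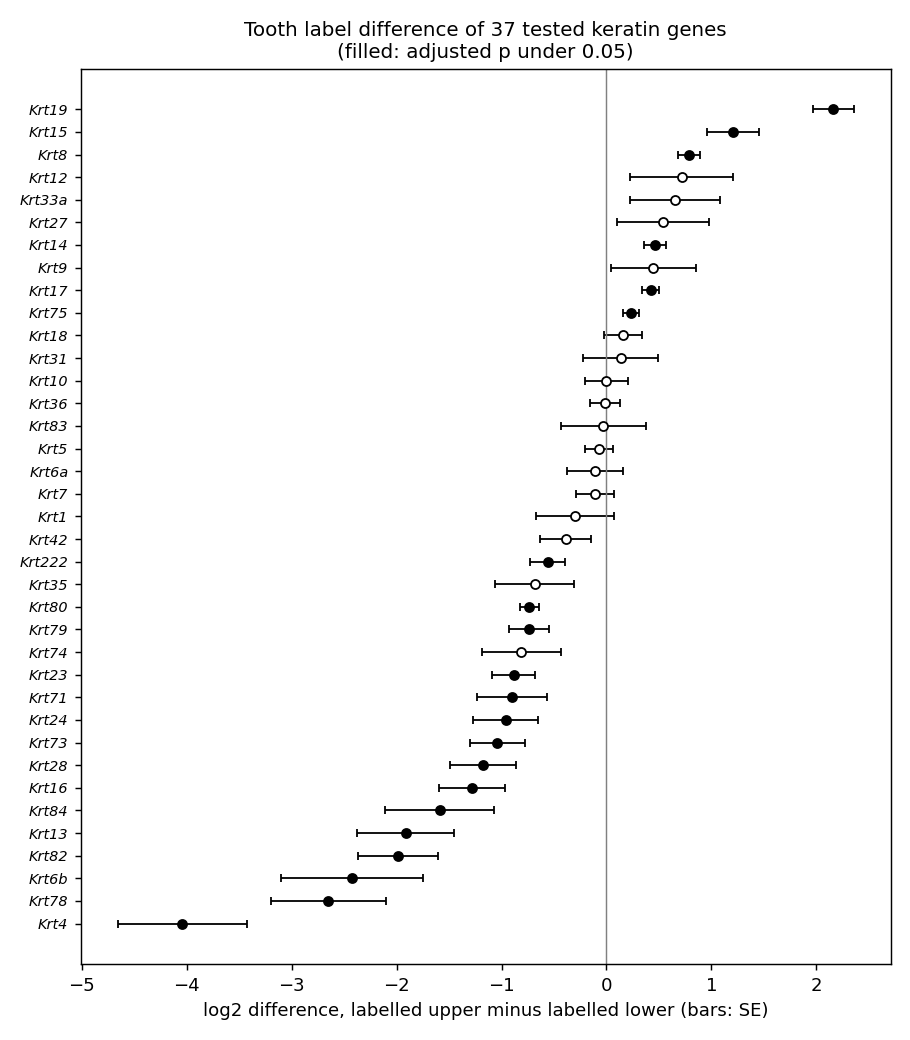
Log2 difference, labelled upper minus labelled lower, of the 37 keratin genes tested, with bars of 1 SE and filled points for adjusted p under 0.05. Filled points run from Krt19 at 2.16 on the labelled upper side to Krt4 at -4.04 on the labelled lower side.

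Among the genes of basal cells, Krt5, the type II partner of Krt14, ran from 1248 CPM through a median of 1904 to 2509 CPM in labelled upper and from 1678 through 2032 to 2402 CPM in labelled lower. The labels overlapped throughout and Krt5 was not called (log2 difference -0.07 ± 0.14, SE; adjusted p = 0.716). Krt14, its usual type I partner, ran from 573.7 through 715.8 to 858.7 CPM in labelled upper and from 410.9 through 530.9 to 653.6 CPM in labelled lower. It was higher in labelled upper in every individual, by 0.46 ± 0.10 on the log2 scale (adjusted p = 0.00332). Krt15, a type I keratin of basal cells that is often retained in stem cell niches, ran from 170.3 through 292.9 to 379.9 CPM in labelled upper and from 77.9 through 105.9 to 218.9 CPM in labelled lower. Its difference was 1.21 ± 0.25 on the log2 scale (adjusted p = 0.00168), and the highest libraries labelled lower reached into the labelled upper range. The median log2 difference of these 3 genes was 0.46. None of the 3 was called in a stage trend of either label (0 rising, 0 falling). With odd or even individual as a term, Krt5 was called rising in labelled upper (0.15 ± 0.03 per day; adjusted p = 0.0156). That fit called 1251 of 16287 genes rising.

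Krt17 belongs to the keratins of appendages, periderm and wounded epithelium and is found in developing teeth, hair and glands. It was the second most counted member, from 1189 through 1430 to 1696 CPM in labelled upper and from 951.3 through 1018 to 1318 CPM in labelled lower. The difference was 0.42 ± 0.08 on the log2 scale (adjusted p = 0.00107). Krt6a, a type II partner of Krt16 and Krt17, ran from 63.2 through 110.3 to 164.4 CPM in labelled upper and from 57.9 through 106.9 to 239.9 CPM in labelled lower, and was not called (-0.11 ± 0.27; adjusted p = 0.789). Krt16, which is induced in wounded and fast-dividing epithelium, ran from 1.15 through 2.70 to 7.40 CPM and from 3.73 through 7.27 to 18.4 CPM, and was higher in labelled lower (-1.28 ± 0.32; adjusted p = 0.00583). Krt6b was at 0.052 to 3.82 CPM in labelled upper and 0.807 to 13.7 CPM in labelled lower (-2.42 ± 0.68; adjusted p = 0.0125). Transcripts of Krt6a and Krt6b share 643 stretches of 100 bases, so the split of counts between these 2 genes is uncertain. Of all such stretches, 31.8% in Krt6a and 30.1% in Krt6b are shared with any other keratin.

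Krt75, a type II keratin of the hair follicle that is also known from enamel, had the smallest spread of the named members, with 1.62 times between its lowest and highest library. It ran from 12.9 through 18.7 to 20.8 CPM in labelled upper and from 13.0 through 14.7 to 17.4 CPM in labelled lower. The difference of 0.23 ± 0.08 was called (adjusted p = 0.0333), and in 11 of 22 alternative analyses it was called again. Krt79, known from the hair canal and sebaceous duct, ran from 2.20 through 3.50 to 5.75 CPM and from 4.06 through 6.20 to 7.57 CPM, and was higher in labelled lower (-0.74 ± 0.19; adjusted p = 0.00749). In the first 4 stages alone its difference was -0.37 ± 0.24 (adjusted p = 0.281). Of the 7 tested members of the appendage, periderm and wound group, 2 were thus called towards the upper label and 3 towards the lower. Over all genes 18.1% were called in each direction. The median of the 7 was -0.39.

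Of the keratins of simple epithelium, Krt19, a type I keratin without the usual tail that is known from simple epithelia and basal cells, gave the largest difference towards labelled upper. It ran from 28.5 through 39.3 to 56.4 CPM in labelled upper and from 6.07 through 7.17 to 20.6 CPM in labelled lower, and differed by 2.16 ± 0.20 on the log2 scale (adjusted p = 2.34e-06). The ranges did not overlap, and the highest libraries labelled lower were those of individuals 1 and 2, at 20.6 and 13.5 CPM, where Xist was low. Krt8 ran from 32.2 through 36.1 to 42.3 CPM in labelled upper and from 15.02 through 21.2 to 29.7 CPM in labelled lower, again without overlap (0.79 ± 0.10; adjusted p = 5.7e-05), and individuals 1 and 2 were again the highest labelled lower, at 29.2 and 29.7 CPM. Without those 2 libraries the differences were 2.45 ± 0.15 for Krt19 (adjusted p = 1.06e-06) and 0.92 ± 0.10 for Krt8 (adjusted p = 3.96e-05). The last library labelled upper (ED18.0) and the first labelled lower (ED14.5) were at 28.5 and 20.6 CPM for Krt19. For Krt8 they were at 33.2 and 29.2 CPM. Whether these label differences are part of a course over the order of the libraries was not tested. Krt18, the type I partner of Krt8, ran from 41.3 through 58.9 to 79.8 CPM and from 35.1 through 57.7 to 84.5 CPM, and was not called (0.15 ± 0.18; adjusted p = 0.546). Krt7, a type II keratin of ducts and glands, was at 9.96 to 17.2 CPM and 9.50 to 24.7 CPM and was not called (-0.11 ± 0.18; adjusted p = 0.674).

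Krt80 and Krt23 moved the other way within this group. Krt80, a type II keratin that joins filaments near cell junctions as cells differentiate, ran from 15.03 through 20.8 to 29.3 CPM in labelled upper and from 26.3 through 33.1 to 50.4 CPM in labelled lower. It was higher in labelled lower in every individual (-0.74 ± 0.09; adjusted p = 3.99e-05). Krt23, a type I keratin, ran from 2.97 through 4.39 to 6.58 CPM and from 5.98 through 6.62 to 19.1 CPM (-0.88 ± 0.21; adjusted p = 0.00427). Its highest value, labelled lower of individual 5, lay far above the next at 9.09 CPM, and without that library the labelled lower mean was 6.96 ± 1.06 CPM (SD, n = 7), against 4.57 ± 1.21 CPM (n = 8) in labelled upper. Of the 6 tested members of the simple group, 2 were called in each direction, beside 18.1% of all genes in each, with a median of 0.02.

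**Figure D3:**
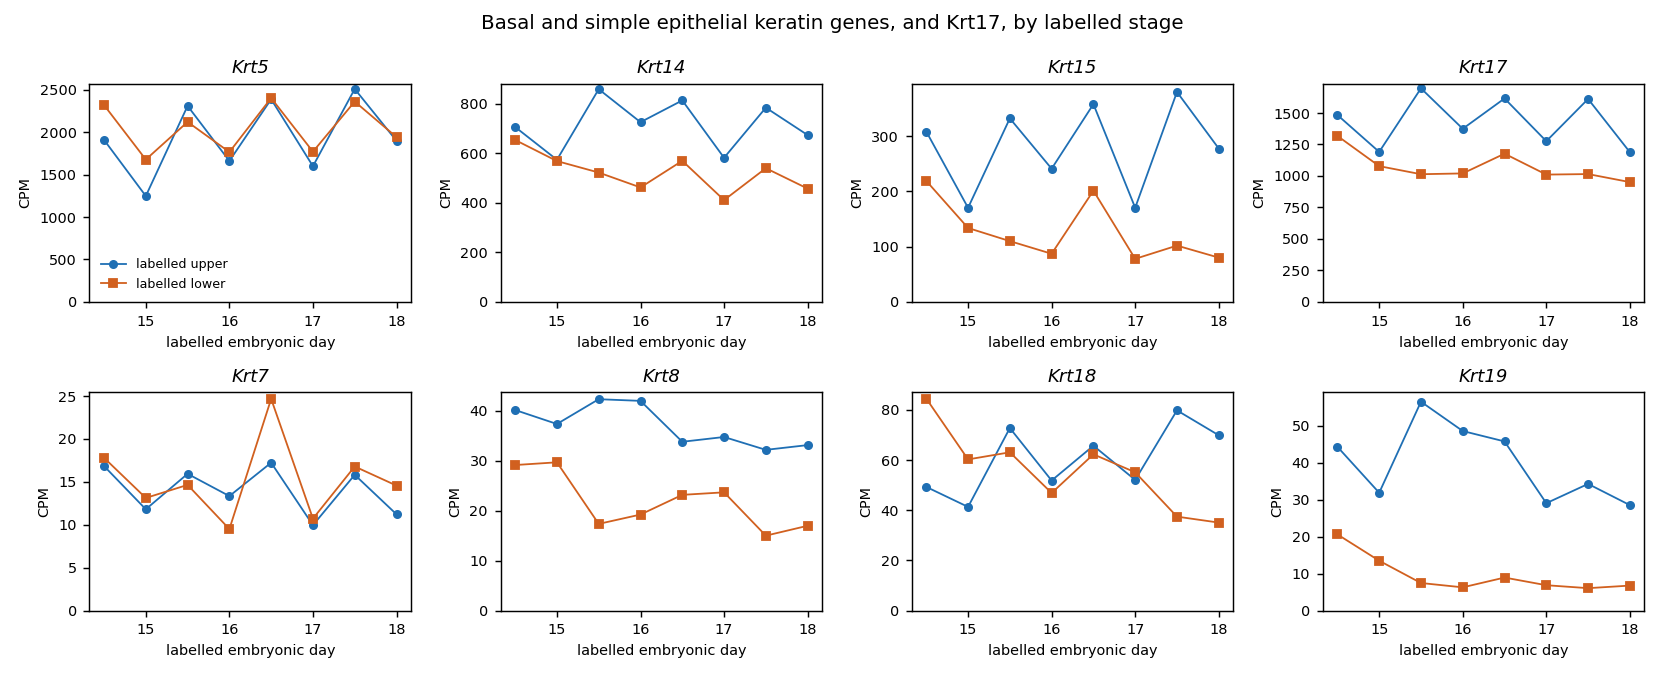
CPM of 3 basal keratin genes (Krt5, Krt14, Krt15), Krt17 and 4 simple epithelial keratin genes (Krt7, Krt8, Krt18, Krt19) in each library against labelled embryonic day, with a line per label that joins single libraries. Krt8 and Krt19 separate the labels at every stage, and Krt5 and Krt7 alternate between successive stages in both labels.

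Towards labelled lower the largest differences were those of Krt4 and Krt78, of the mouth-lining keratins. All 4 tested members of that group, Krt4, Krt13, Krt78 and Krt24, were called, beside 18.1% of all genes in that direction. Their median log2 difference was -2.28. Krt4 ran from 0.617 through 4.54 to 43.8 CPM in labelled upper and from 24.0 through 73.6 to 364.2 CPM in labelled lower (-4.04 ± 0.62; adjusted p = 0.000189). Only the labelled upper library of ED18.0 reached the labelled lower range. Krt13, its type I partner, ran from 11.2 through 53.4 to 169.4 CPM and from 75.8 through 183.4 to 734.6 CPM (-1.91 ± 0.46; adjusted p = 0.00533). Krt78, a type II keratin of stratified epithelium, was at 0.224 to 0.785 CPM in labelled upper and 0.449 to 11.2 CPM in labelled lower (-2.65 ± 0.55; adjusted p = 0.00189). Krt24, a type I keratin, ran from 0.420 through 1.68 to 3.57 CPM and from 2.18 through 3.39 to 5.32 CPM (-0.96 ± 0.31; adjusted p = 0.0253). The last 4 stages alone gave -1.55 ± 0.53 for Krt13 (adjusted p = 0.0774) and -0.72 ± 0.37 for Krt24 (adjusted p = 0.214).

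Single libraries carried much of the level of this group. The labelled lower library of individual 5 (ED16.5) was highest for Krt4, Krt13, Krt16, Krt23 and Krt78. This was not particular to the mouth-lining keratins. Among the libraries labelled lower it was also highest for Krt1, Krt5, Krt6a, Krt7, Krt10, Krt24, Krt79 and Krt80. Its share of counts on keratin genes, 0.628%, was the highest of all 16 libraries. Without it, the labelled lower mean of Krt4 was 70.0 ± 53.3 CPM (SD, n = 7) instead of 106.8 ± 115.2 (n = 8), and that of Krt13 165.1 ± 65.1 instead of 236.3 ± 210.2. Genes of cornifying oral epithelium moved with these values: the summed level of 10 such genes (among them Sprr3, Cnfn, Crct1 and Lor) lay between 26.1 and 41.0 CPM under the upper label and between 29.4 and 291.6 CPM under the lower, highest in the same library of individual 5, followed by 196.7 CPM in that of individual 8. Of the 8 such genes tested, 6 were called higher in labelled lower (Cnfn, Sprr3, Crct1, Sprr1a, Sbsn and Lor) and 0 higher in labelled upper. Over all genes 18.1% were called in each direction. Sprr2a1 was at 0 counts in all libraries and Ivl at most at 0.111 CPM. Markers of mesothelium and glands summed to 0.259 to 1.87 CPM and 0.996 to 4.18 CPM. Both tested members of that list were called higher in labelled lower, Msln (-1.63 ± 0.39; adjusted p = 0.00479) and Bpifa1 (-3.25 ± 1.01; adjusted p = 0.0212). Crct1 and Bpifa1 were at most at 0.0295 and 0.196 CPM in labelled upper, so they passed the filter for testing only because of libraries labelled lower. The part of these cell types in the keratin values was not tested. Krt4 and Krt13 were still called when any 1 individual was left out, with log2 differences of -4.41 to -3.40 and of -2.07 to -1.51.

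The pair known from the layers above the basal cells of the epidermis had mean levels per length of 35.6 (Krt1) and 37.1 CPM per kb (Krt10) in labelled upper, and of 40.6 and 35.5 CPM per kb in labelled lower. Krt1 ran from 33.0 through 87.7 to 164.8 CPM in labelled upper and from 32.0 through 94.5 to 210.6 CPM in labelled lower, and Krt10 from 36.3 through 77.5 to 128.7 CPM and from 45.6 through 68.8 to 104.2 CPM. Neither was called between the labels (-0.30 ± 0.37 for Krt1, adjusted p = 0.569, and -0.0033 ± 0.21 for Krt10, adjusted p = 0.992). Whether the oral and the epidermal pair differ in this contrast was not tested. Krt9 was tested and not called (0.45 ± 0.41; adjusted p = 0.421). Krt2, a keratin of the upper epidermis, had 36 counts over the libraries labelled upper and 7 over those labelled lower and did not reach the level needed for testing. Krt77 had at most 8 counts in a library.

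Keratins of the inner root sheath and hair shaft groups were at low levels. Krt73, a type II keratin of the inner root sheath, was the highest of these 2 groups, from 1.77 through 2.92 to 5.06 CPM in labelled upper and from 3.23 through 6.07 to 10.7 CPM in labelled lower (-1.04 ± 0.26; adjusted p = 0.0065). In the first 4 stages alone it was not called (-0.76 ± 0.45; adjusted p = 0.24), and individuals 1 and 2 had the opposite order, with labelled upper at 5.06 and 3.53 CPM and labelled lower at 3.84 and 3.23 CPM. Without the labelled lower libraries of individuals 1 and 2, where Xist was low, the difference was -1.47 ± 0.16 (adjusted p = 3.61e-05). Krt36, a type I keratin of the hair shaft group, was at 1.54 to 3.01 CPM and 1.43 to 2.91 CPM and was not called (-0.01 ± 0.15; adjusted p = 0.954). Among members with under 50 counts on average, Krt28 (-1.18 ± 0.32), Krt71 (-0.90 ± 0.33), Krt82 (-1.99 ± 0.38), Krt84 (-1.59 ± 0.52) and Krt222 (-0.56 ± 0.16) were called higher in labelled lower. These rest on few counts: Krt82 had 19 counts over the 8 libraries labelled upper and 85 over those labelled lower, and Krt84 had 25 and 78. Krt71 and Krt82 were at most at 0.244 and 0.181 CPM in labelled upper, under the 0.269 CPM set for testing. Krt84 reached that level in labelled upper only at ED18.0 (0.332 CPM). Krt71, Krt82 and Krt84 thus passed the filter only because of libraries labelled lower, so their calls are not independent of it. Krt71 was called in 6 of 21 alternative analyses. Krt74, annotated as a pseudogene, was not called (-0.81 ± 0.37; adjusted p = 0.105), nor were Krt12, Krt27, Krt31, Krt33a, Krt35, Krt42 and Krt83. Krt31, Krt33a, Krt34 and Krt83 share 5.43% to 17.55% of their 100-base stretches with other hair keratins and their counts are uncertain for that reason.

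The ratio of the partners of a pair was set side by side in the labels. The log2 ratio of Krt5 to Krt14, per length, was 1.05 ± 0.18 (SD, n = 8) in labelled upper and 1.60 ± 0.19 in labelled lower, with ranges of 0.75 to 1.31 and 1.19 to 1.76. That of Krt8 to Krt18 was -1.13 ± 0.42 and -1.78 ± 0.27, with ranges of -1.76 to -0.59 and -2.31 to -1.47. The ranges of the 2 labels overlapped for both pairs, and for Krt4 to Krt13. Krt4 was below Krt13 in every library, with a log2 ratio of -3.97 ± 1.33 in labelled upper and -1.79 ± 0.76 in labelled lower. Krt1 and Krt10 were close to even, at -0.11 ± 0.20 and 0.02 ± 0.54. Krt6a was above Krt16 (4.63 ± 0.57 and 3.36 ± 0.53) and below Krt17 (-4.31 ± 0.42 and -3.86 ± 0.57). Summed over the family and set per kilobase, the ratio of type I to type II genes was 1.48 to 1.97 in labelled upper and 0.998 to 1.41 in labelled lower, ranges that did not overlap. It was also lower at the last stage than at the first within each label. From ED14.5 to ED18.0 it went from 1.72 to 1.48 in labelled upper and from 1.32 to 1.07 in labelled lower. The ratios are given as values with no test.

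**Figure D4:**
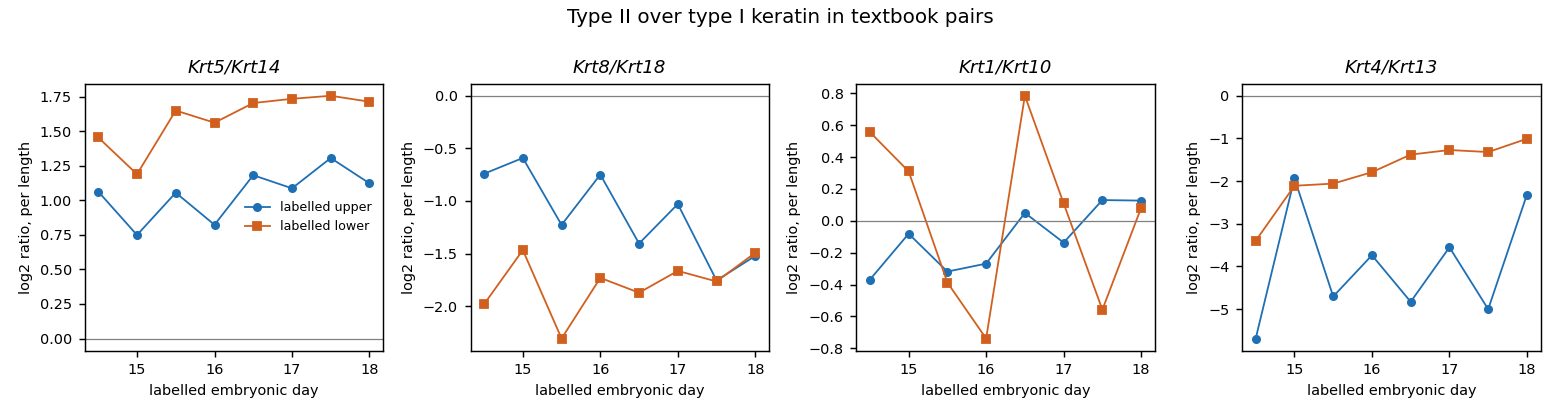
Log2 ratio of the type II to the type I gene, per length, for 4 textbook pairs in each library against labelled embryonic day; the grey line marks equal levels and each panel has its own axis range. Krt5 over Krt14 lies higher and Krt8 over Krt18 mostly lower in labelled lower than in labelled upper, and Krt1 over Krt10 crosses the line of equal levels in both labels.

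With labelled stage, 5 of 37 members rose in the libraries labelled upper, where 3.72% of all genes rose, and 0 fell, where 2.41% of all genes fell (3 fell at an unadjusted p under 0.05, and DESeq2 called 2). Krt1 rose from 33.0 CPM at ED14.5 to 164.8 CPM at ED18.0, a slope of 0.54 ± 0.06 on the log2 scale per day (adjusted p = 0.00276), and Krt10 from 36.3 to 128.7 CPM (0.42 ± 0.07; adjusted p = 0.0107). Krt13 rose from 24.7 to 169.4 CPM (0.85 ± 0.15; adjusted p = 0.0158), Krt80 from 15.4 to 26.2 CPM (0.27 ± 0.04; adjusted p = 0.00852) and Krt4 from 0.617 to 43.8 CPM (1.22 ± 0.23; adjusted p = 0.0202). Between ED14.5 and ED18.0 Krt1 increased at 6 of 7 steps. The value of Krt4 at ED18.0 was far above the next, 6.06 CPM, and without that library its slope was 0.62 ± 0.24 (adjusted p = 0.225). Krt1 and Krt80 were the 2 members called when the library of individual 1 or that of individual 8 was left out, while Krt10, Krt13 and Krt4 were not. The median slope over the 37 members was 0.16, beside 0.00061 over all genes tested. With lane as a term 0 of the 5 was called, in a fit that called 1 gene rising and 1 falling of 16287; its slopes were 0.64 ± 0.12 for Krt1 (adjusted p = 0.191), 0.59 ± 0.12 for Krt10 (adjusted p = 0.224) and 0.17 ± 0.08 for Krt80 (adjusted p = 0.479). It gave 0.79 ± 0.31 for Krt13 (adjusted p = 0.418) and 1.85 ± 0.47 for Krt4 (adjusted p = 0.278). With library sizes from the epithelial markers Krt80 was not called (0.23 ± 0.07; adjusted p = 0.093). Msln, a mesothelium marker, also rose in labelled upper (0.78 ± 0.16; adjusted p = 0.0252), and its part was not tested.

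In the libraries labelled lower, 0 of 37 members rose, where 2.63% of all genes rose (5 at an unadjusted p under 0.05, and 2 by DESeq2), and 2 fell, where 1.49% of all genes fell. Krt18 fell from 84.5 CPM at ED14.5 to 35.1 CPM at ED18.0 (-0.29 ± 0.06 per day; adjusted p = 0.0291), and Krt19 from 20.6 to 6.77 CPM (-0.42 ± 0.10; adjusted p = 0.0485). Most of the Krt19 drop lay before ED15.5, where it was at 7.46 CPM, and without the library of individual 1 the slope was -0.26 ± 0.10 (adjusted p = 0.236). Its call was kept in 10 of 18 alternative analyses. Krt18 was not called without individual 1, 7 or 8 (adjusted p of 0.161, 0.0848 and 0.144). Without individuals 1 and 2, the libraries low in Xist, neither was called: the slope was -0.30 ± 0.09 for Krt18 (adjusted p = 0.203) and -0.07 ± 0.09 for Krt19 (adjusted p = 0.77), in a fit that called 1 gene rising and 0 falling of 16287 (DESeq2 was not run on this subset). With lane as a term Krt18 was called (-0.55 ± 0.07; adjusted p = 0.0435) and Krt19 was not (-0.74 ± 0.19; adjusted p = 0.155). Without individual 5, the library with the highest keratin share, 3 members rose: Krt4 (0.72 ± 0.13; adjusted p = 0.0283), Krt78 (1.08 ± 0.17; adjusted p = 0.0182) and Krt80 (0.20 ± 0.04; adjusted p = 0.0441). Krt1 and Krt10 went up and down between stages in labelled lower, with slopes of -0.02 ± 0.23 and 0.06 ± 0.12 (adjusted p of 0.97 and 0.812).

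**Figure D5:**
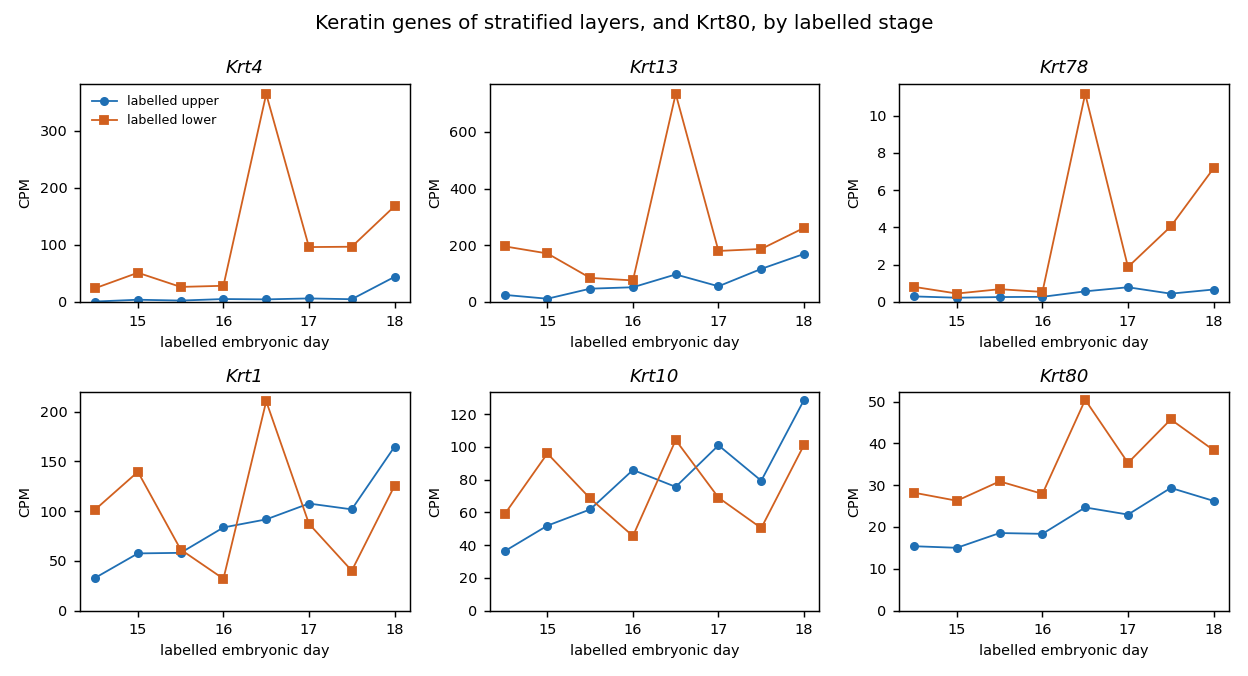
CPM of Krt4, Krt13, Krt78, Krt1, Krt10 and Krt80 in each library against labelled embryonic day, with a line per label that joins single libraries and axes that start at 0. In labelled upper Krt1 runs from 33.0 to 164.8 CPM, and in all 6 panels ED16.5 is the highest of the libraries labelled lower.

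The difference in slope between the labels was tested directly, and 0 of 37 members were called in either direction, beside 0.682% of all genes steeper in labelled upper and 0.602% steeper in labelled lower (3 and 3 members at an unadjusted p under 0.05; DESeq2 called Krt18 alone). Krt1 and Krt10, called in labelled upper and not in labelled lower, gave differences in slope of 0.57 ± 0.29 (adjusted p = 0.408) and 0.37 ± 0.15 (adjusted p = 0.292). Krt18 came nearest. Its slope was 0.16 ± 0.07 per day in labelled upper and -0.29 ± 0.06 in labelled lower, a difference of 0.46 ± 0.11 (adjusted p = 0.0523). With the individual as a block the difference was 0.46 ± 0.08 and was called (adjusted p = 0.0223). Without the labelled lower libraries of individuals 1 and 2 again 0 of 37 members were called in either direction.

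Several keratin genes alternated between successive individuals, as Pou3f3 did. In the libraries labelled upper, individuals 1, 3, 5 and 7 all lay above individuals 2, 4, 6 and 8 for 4 of 37 members (Krt5, Krt7, Krt15 and Krt17), beside 3.31% of all genes tested. In those labelled lower this held for 3 (Krt5, Krt7 and Krt27), beside 2.49%. The opposite arrangement held for 0 members in either label, beside 6.24% and 5.02% of all genes. Krt5 was at 1909 to 2509 CPM against 1248 to 1899 CPM in labelled upper, and at 2121 to 2402 CPM against 1678 to 1942 CPM in labelled lower. Krt7 was at 15.8 to 17.2 against 9.96 to 13.3 CPM, and at 14.7 to 24.7 against 9.50 to 14.6 CPM. Krt5, Krt7, Krt24, Krt42 and Krt80 moved opposite to Pou3f3 at 7 of 7 steps from a stage to the next, in either label. Steps were counted for keratin genes only, with no share over all genes, so whether this is unusual was not tested. The summed epithelial markers differed in the same direction: in labelled lower they were at 1502 to 1594 CPM in individuals 1, 3, 5 and 7 and at 1287 to 1444 CPM in the rest, and in labelled upper at 1148 to 1499 and 1066 to 1225 CPM. Their part in the alternation was not tested. Within individuals 1, 3, 5 and 7 alone, 5 members were called towards the upper label and 7 towards the lower, and within individuals 2, 4, 6 and 8 alone 5 and 11, with 5 and 4 called in both. Over all genes the calls were 1372 and 1916, and 1342 and 1841.

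Desmosomes and hemidesmosomes are the structures that anchor keratin filaments. Of 17 desmosome genes tested, 2 were called towards the upper label and 3 towards the lower, where 18.1% of all genes were called in each direction. Their median was -0.11, beside 0.01 over all genes. Those named by the smallest p were Pkp2, which encodes a plakophilin (0.97 ± 0.17; adjusted p = 0.00055), and the cadherin gene Dsc1 (-2.18 ± 0.41; adjusted p = 0.00089). Dsp, the desmoplakin gene whose product ties keratin to the desmosome, was at 670.3 to 1219 CPM over the 16 libraries and was not called (0.24 ± 0.11; adjusted p = 0.102). Among the hemidesmosome genes, Lama3 (0.63 ± 0.07), which encodes a laminin chain, was higher in labelled upper and the integrin gene Itga6 (-0.32 ± 0.09) in labelled lower. Among 9 tested genes for regulators of keratin genes or filaments, Fbf1, Grhl3, Eppk1 and Klf5 were higher in labelled upper and Trp63 and Ovol1 in labelled lower, with a median of 0.05. Trp63, the p63 gene, which drives Krt5 and Krt14 in basal cells, was at 203.3 to 285.1 CPM in labelled upper and 260.7 to 334.5 CPM in labelled lower (-0.23 ± 0.07; adjusted p = 0.0198). In the stage trends and their difference, 0 members of these 3 lists were called. Over all genes, 3.72% rose and 2.41% fell in labelled upper, and 2.63% and 1.49% did in labelled lower. In the difference of trends 0.682% were steeper in labelled upper and 0.602% in labelled lower. For lists this short, 0 calls is close to those shares.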

How the data were processed

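Poly(A) RNA was measured in 16 libraries (TruSeq V2, 100 bp read pairs, a kit that does not mark strand, per the labels' protocols). The authors deposited whole-number counts per gene symbol with no normalization; Bowtie2 2.0.2, TopHat2 2.0.6, HTSeq 0.5.3p9 and mm10 are named in the submitters' processing notes, with annotation and strand setting not given in the sources used here. In each table, 5 summary lines stayed out of library sizes and tests. Reads that map to several places, 7.53% to 8.42% of gene counts, were set aside in those summary lines, which lowers near-identical keratin genes.

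Genes with 0.269 CPM (10 counts at the median depth) in at least 2 libraries (16287) entered edgeR 4.0.16 under R 4.3.3 (scaling by TMM, quasi-likelihood F test, Benjamini-Hochberg adjustment over all of them, threshold 0.05). The labelled tooth difference had a natural spline of labelled stage with 3 degrees of freedom; stage trends were linear in the 8 libraries of a label; the difference in trend added label by linear stage. An SE is the size of the log2 value divided by the square root of F. DESeq2 1.42.0 was an alternative, beside other scalings, filters, blocks and subsets. Scaling by epithelial markers and leaving out the labelled lower libraries of individuals 1 and 2 were chosen after seeing the data. Scripts were tested on simulated counts. Keratin genes with a mean of at least 50 counts were named with values, others where they passed a test, and up to 4 genes of other lists by the smallest p. Dsp, Trp63, Ovol1 and genes of the marker lists were named outside that rule, after their values were seen. The members, gene groups and lists were chosen with earlier results of these data known.

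The labels tie the upper and lower library of a stage to the same embryo, so individuals were treated as pairs in an alternative fit. The residuals of the paired libraries correlated at 0.149 to 0.405 in all 8 pairs. Libraries of different individuals were not correlated for comparison, and both labels held genes that alternate between odd and even individuals. These values therefore cannot show whether an embryo was shared. Positions and transcript lengths are from GENCODE (GRCm38), where 50 of 51 symbols matched, and promoters from RefSeq (GRCm38.p6). Some genes of the lists are not reported here.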

Additional observations from a re-analysis of the deposited data

Results flagged for a closer look

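Among 46 sets of 8 libraries, that is 23 keratin genes in each label, 5 held a highest library whose gap to the next was above Dixon's critical value of 0.526 of the whole range; chance flags about 1 in 20 sets. Krt4 was at 43.8 CPM in the labelled upper library of individual 8 (ED18.0), where the next library was at 6.06 CPM. The labelled lower library of individual 5 (ED16.5) gave the 4 others. In it Krt4 was at 364.2 CPM (next 167.6), Krt13 at 734.6 CPM (next 261.4), Krt16 at 18.4 CPM (next 9.02) and Krt23 at 19.1 CPM (next 9.09). The summed level of cornifying oral epithelium genes was also highest in that library, at 291.6 CPM.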

How the results depend on the processing

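All alternatives were run, and 0 of the called keratin genes changed sign in any of them. Of 580 alternative values of single called genes 490 stayed called and 90 did not. Under TMM scaling 46 of 46 mean levels moved by less than their SD. The TMM factors were 0.984 to 1.009, so little movement was possible. The tooth difference was called in every alternative for 7 of 21 members (Krt15, Krt17, Krt19, Krt8, Krt4, Krt78 and Krt80). The number higher in labelled lower was 15, and 7 in individuals 1, 3, 5 and 7, in the first 4 stages and in the last 4 stages. The number rising in labelled upper was 5, with 10 when odd or even individual was a term (over all genes, 606 and 1251) and 0 with lane as a term (over all genes, 1). The number falling there was 0, with 2 by DESeq2, 1 with odd or even individual as a term, 1 with both labels in one fit and 1 with library size taken from the 12 epithelial markers, a scaling chosen after seeing the data. The number rising in labelled lower was 0, with 2 by DESeq2 and 2 with odd or even individual as a term; the number falling was 2, with 1 under the lane term and 0 without the labelled lower libraries of individuals 1 and 2, a subset chosen after seeing the data. The number steeper in labelled upper was 0, with 1 by DESeq2, 1 with odd or even individual as a term and 1 with the replicate block; the number steeper in labelled lower was 0, with 1 under the odd or even term. The cause of these changes was not tested.

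The individual as a replicate block gave 5 and 13 members in the tooth difference and 1 and 0 in the difference of trends. It changed no call other than those of Krt75, Krt71, Krt84 and Krt18. Leaving out each individual in turn gave 5 to 6 members higher in labelled upper, 12 to 15 higher in labelled lower, 2 to 6 rising and 0 falling in labelled upper, 0 to 3 rising and 0 to 2 falling in labelled lower, and 0 to 1 and 0 in the difference of trends. Scaling by epithelial markers moved the median of all genes from 0.01 to 0.19 and the calls over all genes from 2946 and 2956 to 4494 and 1151, while the keratin calls were 6 and 13. Without any filter Krt2 (2.35 ± 0.62) and Krt25 (-1.65 ± 0.57) were also called, on few counts. Depth limits the 19 members with low counts, for which the spread includes sizeable counting error.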
